A study of Mus musculus with 2 samples.

Results

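Soft epithelial keratins are the filament proteins of epithelia, as distinct from the hard keratins of hair and nail. Members were chosen by symbol alone, as every entry named *Krt* with a number from 1 to 28 or from 71 to 80, with or without the letter a or b. The rule took 34 of the 21628 entries in the deposited table, 17 of type I (numbers 9 to 28) and 17 of type II (1 to 8 and 71 to 80).

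The cells came from the lingual epithelium of mouse pups at P0, the day of birth. The genotype was Sox2GFP, an allele in which green fluorescent protein is made from the *Sox2* locus, and the labels name no other allele and no treatment. Epithelium of many pups was pooled, dissociated with enzymes and sorted by fluorescence. The sort gave a SOX2-GFP high (GFP-high) and a SOX2-GFP low (GFP-low) population, to compare brightly with dimly fluorescent cells. GFP-negative cells were sorted apart and have no library here, so GFP-low cells are not all of the remaining epithelium. The paper describes the GFP-low population as epithelium mixed with connective tissue. The GFP-high and GFP-low populations were bins of a continuous range of brightness, so neither is a single cell type. Each gave about 100000 cells and 1 stranded mRNA library of 50-nt reads. With 1 library per population, none of the differences below could be checked against replicates, and p-values were not computed.

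Levels are FPKM, mapped fragments per kilobase of transcript relative to library size, which corrects for transcript length, so that genes within a library can be set side by side. The labels state about 75000000 reads per library. The steps between low FPKM values were read with the exon lengths of the genes, each less 200 nt. They put roughly 27000000 reads behind the GFP-high values and 35000000 reads behind the GFP-low values. All 34 members had a value above 0 in both libraries, and 2 of them (*Krt26* and *Krt28*, in GFP-high cells) lay below the level that 3 such reads would give.

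Keratins assemble only as pairs of an acidic type I and a basic or neutral type II chain, and these heterodimers build the filaments that tie desmosomes and hemidesmosomes into a cell-wide network. Each epithelium, and each layer within it, makes its own set of pairs, so keratin transcripts are used to tell basal from differentiating cells. The dorsal tongue carries several programmes side by side: basal cells with *Krt5* and *Krt14*, mucosal layers with *Krt4* and *Krt13*, cornified filiform papillae with keratins shared with skin and hair, and taste buds with simple epithelial keratins such as *Krt8*.

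The libraries carried the markers of their labelled tissue. *Cdh1*, which encodes E-cadherin, had an FPKM of 382 in GFP-high versus 309 in GFP-low cells, and *Epcam*, an epithelial adhesion molecule, had 166 and 86.8. *Sox2* itself, the gene whose locus drives the sort, had 112 in GFP-high versus 59.0 in GFP-low cells.

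Soft keratin transcripts made up 7.37% of the summed FPKM of the GFP-high library and 5.02% of that of the GFP-low library. The totals were 78915 and 50131 FPKM, and without *Krt4* and *Krt13* they were 34189 and 38069, so those 2 genes carried the whole excess in GFP-high cells. In a bulk library, fewer cells of a type and less RNA per cell cannot be told apart, and this holds for every value below.

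A member was called for a population where it reached 5 FPKM there and a ratio of at least 1.5 to the other population. By this rule 10 members were called for GFP-high and 2 for GFP-low cells, or 47.6% and 9.52% of the 21 members that reached 5 FPKM in either library. Over all 10760 entries at that level the shares were 9.48% and 8.9%, so the GFP-high share lay above the background and the GFP-low share near it. All 21 of these members reached 5 FPKM in both libraries, so asking for the minimum in both changes none of their calls, and the shares of the 10016 entries at 5 FPKM in both libraries were 7.76% and 6.32%. The other 9 were uncalled, and 13 members stayed under 5 FPKM in both. The split between populations moved with the scaling. It was 10 to 2 after scaling to the median ratio (background 10.3% and 8.05%), 10 to 4 after each library was divided by its FPKM sum (TPM, background 7.5% and 11.3%), and 9 to 6 after scaling to 10 pan-epithelial genes (background 3.29% and 39.8%). The last 2 scalings moved every log2 ratio by -0.10 and -0.47, and the median log2 ratio of genes at 5 FPKM in both libraries from -0.04 to -0.14 and -0.51. All 12 members called on the deposited values kept their direction under the 3 scalings. With no FPKM minimum, 13 of the 34 members were called for GFP-high and 6 for GFP-low, against 18.1% and 18.8% of all 17283 entries above 0 in either library.

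**Figure D1:**
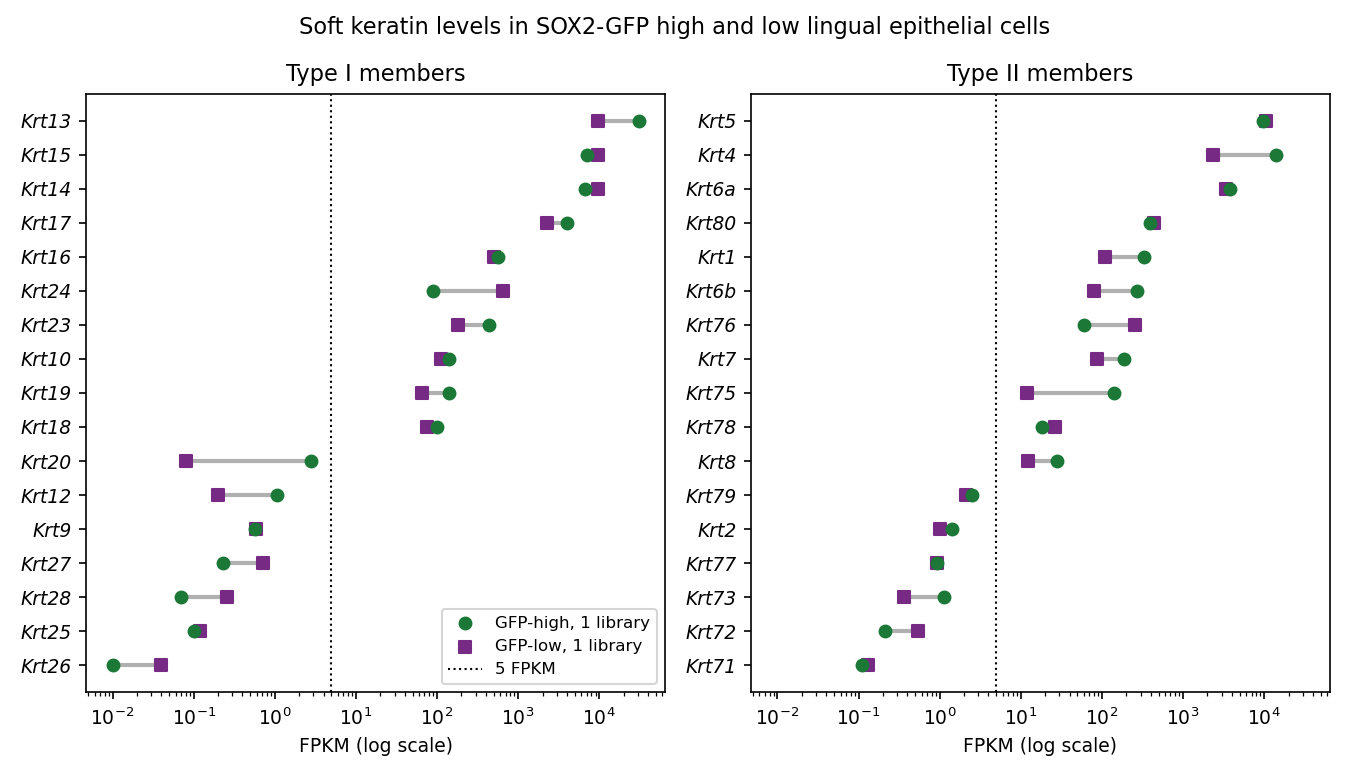
FPKM of the 17 type I (left) and 17 type II (right) soft keratins on a log axis, 1 GFP-high library (circles) and 1 GFP-low library (squares), ordered by summed level, with the 5 FPKM minimum as a dotted line. The members fall into 21 above the line in both libraries and 13 below it in both, and the widest gaps among the 21 are those of *Krt75*, *Krt24*, *Krt4* and *Krt76*.

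In GFP-high cells the largest amounts of transcript were in the mucosal pair. *Krt13*, the type I keratin of suprabasal layers in wet stratified epithelia such as tongue and oesophagus, had 30523 FPKM in GFP-high versus 9738 in GFP-low cells. It was 3.13-fold higher in GFP-high cells and held rank 2 of all genes there, against rank 6 in GFP-low cells. *Krt4*, its type II partner, had 14203 and 2323 FPKM, a ratio of 6.11 that was larger than that of its partner. It stood at rank 4 in GFP-high and rank 35 in GFP-low cells, the widest change of place among the members in the first 50 ranks of both libraries. Both genes were in the GFP-high set under every scaling tried.

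The basal keratins were also abundant and lay the other way. *Krt5*, the type II keratin of basal cells in stratified epithelia, had 9667 FPKM in GFP-high versus 10422 in GFP-low cells. *Krt14*, its main type I partner, had 6672 and 9635. *Krt15*, a basal type I keratin also used as a marker of hair bulge stem cells, had 7093 and 9773. All 3 were lower in GFP-high cells under each scaling, by ratios of 1.08, 1.44 and 1.38 on the deposited values, which is short of a call. *Krt14* reached the GFP-low call under TPM scaling and *Krt14* and *Krt15* under pan-epithelial scaling.

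Set against each other inside a library, where scaling cancels, the mucosal keratins stood higher over the basal ones in GFP-high cells. *Krt13* stood at 4.58 times *Krt14* in GFP-high cells and at 1.01 times in GFP-low cells. *Krt4* stood at 1.47 times *Krt5* in GFP-high and at 0.223 times in GFP-low cells. In GFP-low cells *Krt13*, *Krt14* and *Krt15* were therefore nearly level, while in GFP-high cells *Krt13* led both by a wide margin.

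The sequences before the start sites of called members are shown to set the mucosal *Krt13* beside members that differed in the same or the other direction. Each is 250 bases ending at the base before the start site, from RefSeq on GRCm38.p6 (the mm10 build). All are written 5′ to 3′ on the strand of the gene, and 25 of the 34 members had such a window. The RefSeq start site lay 1518 nt from the gene start of the GENCODE M21 annotation in *Krt14* and 1360 nt in *Krt7*. The windows of these genes therefore lie inside the GENCODE genes. In the other members the gap was at most 140 nt. Capitals mark matches to any of 5 motifs searched on both strands: TATAAA for a TATA box, TGANTCA for AP-1, GCCNNNGGC for AP-2, CATTGT for SOX factors and TGTTTNC for forkhead factors. The first of these is from the minus strand of chromosome 11, chr11:100121567-100121816.

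Krt13: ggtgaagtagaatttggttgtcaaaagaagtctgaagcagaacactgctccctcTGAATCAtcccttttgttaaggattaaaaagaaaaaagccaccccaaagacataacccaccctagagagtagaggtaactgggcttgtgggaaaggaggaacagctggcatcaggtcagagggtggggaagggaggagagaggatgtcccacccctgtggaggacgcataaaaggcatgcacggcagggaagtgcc

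The capitals in this window are an AP-1 match, and *Krt13* was the only 1 of the 25 members with it, against 6.75% of all 32851 windows of this length. TATAAA was in 11 of the 25 windows, against 12.4% of all windows. Of those 11 members only *Krt10* and *Krt76* reached 5 FPKM; the others, such as *Krt25*, *Krt26*, *Krt27*, *Krt28* and *Krt71*, were among the low members. AP-2 letters were found in 3 windows (*Krt7*, *Krt9* and *Krt18*; 13.7% of all), forkhead letters in 4 (*Krt18*, *Krt23*, *Krt25* and *Krt27*; 17.8% of all) and SOX letters in 2 (*Krt9* and *Krt23*; 10.7% of all). A match describes the letters only and does not show binding, and a window without a match says nothing about a factor.

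The simple epithelial keratins were far less abundant than the mucosal and basal ones. *Krt8*, the type II keratin of simple epithelia and a marker of taste bud cells, had 27.9 FPKM in GFP-high versus 12.2 in GFP-low cells. *Krt18*, a type I partner of *Krt8*, had 99.4 and 75.8. It was the only member called in neither population among the 4 that reached 5 FPKM. Its ratio turns below 1 after pan-epithelial scaling. *Krt19*, a type I keratin without a tail domain found in simple and progenitor cells, had 141 and 65.3. *Krt7*, a type II keratin of ducts and other simple epithelia, had 188 and 87.3. The last 2 had the same ratio, 2.16, and *Krt8* had 2.28, so 3 of 4 were called for GFP-high (75%, against 9.48% of all entries). *Krt20*, a type I keratin of gut, urothelium and Merkel cells, had 2.82 FPKM in GFP-high versus 0.08 in GFP-low cells, too low for a call. In *Krt8*, 29.7% of 50-nt exon windows also occur in other annotated transcripts, most of them in the pseudogene *Krt8-ps*, so its level is uncertain.

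Taste receptor cell markers were mixed in direction. Of 10 such markers 2 reached 5 FPKM, both with the higher value in GFP-low cells, the most abundant being *Itpr3* with 97.4 FPKM in GFP-high versus 139.8 in GFP-low cells. *Entpd2*, a marker of glia-like taste cells, was called for GFP-low with 23.7 and 42.2, and none was called for GFP-high (1 and 0 of 2, against 8.9% and 9.48% of all entries); *Itpr3* joins it after TPM and pan-epithelial scaling. The summed level of the list, 128 in GFP-high versus 186 in GFP-low cells, is nearly all from these 2. Of the 8 under 5 FPKM, 7 had the higher value in GFP-high cells, and the 8 summed to 7.07 in GFP-high versus 4.39 in GFP-low cells. *Gnat3* and *Car4* were listed at 0 in GFP-low cells and had 0.92 and 0.87 FPKM in GFP-high cells. The part of taste cells in the keratin values was not tested.

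The keratins of stress responses and skin appendages, which are also made constantly in tongue papillae, stayed high in both populations. *Krt17*, a type I keratin induced in wounds, had 4039.9 FPKM in GFP-high versus 2238 in GFP-low cells, a ratio of 1.81 that fell short of a call after pan-epithelial scaling. *Krt6a*, a type II keratin of wounded and appendage epithelium, had 3803 and 3384. *Krt16*, a type I partner of *Krt6a*, had 563 and 499.5. *Krt6b*, a near copy of *Krt6a*, had only 269.7 and 80.9, but its ratio of 3.34 made it 1 of the 2 called among the 4 (50%, against 9.48% of all entries). *Krt6a* and *Krt16* differed little between the libraries, at ratios of 1.12 and 1.13 that turn below 1 after pan-epithelial scaling.

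These paralogs share sequence, which limits how reads of 50 nt can be assigned to them, and how the authors' processing placed reads with several matches is not given in the sources used here. For *Krt6a* 57.2% and for *Krt6b* 50.1% of 50-nt windows occur in other annotated transcripts, mostly in each other, and for *Krt16* the share is 37.6%, mostly in the pseudogene *Gm11597* and in *Krt14*. The longest run of identical coding sequence in *Krt6a* and *Krt6b* is shown because it holds no base by which a read could be told apart. It spans coding bases 34 to 313 in both genes, 280 nt in all. The run common to *Krt14* and *Krt16*, of 134 nt, covers coding bases 306 to 439 of *Krt14* and 282 to 415 of *Krt16*. Both are from GENCODE M21 transcripts on the same build, on the coding strand, in lower case throughout.

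Krt6a and Krt6b: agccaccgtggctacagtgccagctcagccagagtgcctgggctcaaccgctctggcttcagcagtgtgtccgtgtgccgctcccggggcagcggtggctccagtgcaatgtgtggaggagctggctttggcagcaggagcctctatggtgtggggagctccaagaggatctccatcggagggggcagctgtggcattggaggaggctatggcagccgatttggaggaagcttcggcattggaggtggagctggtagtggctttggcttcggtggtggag
Krt14 and Krt16: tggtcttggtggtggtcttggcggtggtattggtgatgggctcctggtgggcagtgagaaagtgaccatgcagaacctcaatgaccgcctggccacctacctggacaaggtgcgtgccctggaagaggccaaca

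The share was lower in *Krt14* (13.9%) and *Krt5* (12.2%), and 0 in *Krt1*, *Krt4*, *Krt13*, *Krt19*, *Krt23* and *Krt24*. Without the 5 members at 20% or more (*Krt6a*, *Krt6b*, *Krt8*, *Krt12* and *Krt16*), 8 members were called for GFP-high and 2 for GFP-low. The shares of all entries called were 9.48% and 8.9%. Of the 5 left out, only *Krt12* was under 5 FPKM in both libraries.

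The keratins of cornifying epithelia split. *Krt1*, the type II keratin of suprabasal epidermis, had 335 FPKM in GFP-high versus 108 in GFP-low cells, and was called for GFP-high at a ratio of 3.09. *Krt10*, the type I partner of *Krt1*, had 139.6 and 111 and was not called, with a ratio that pan-epithelial scaling turns below 1. *Krt76*, a type II keratin of palate, gingiva and other cornified oral mucosa, had 60.1 and 256, and was called for GFP-low at a ratio of 4.26. *Krt1* and *Krt76* thus went in opposite directions although both are partners of *Krt10*. The other 3 in this group, *Krt2* of upper epidermis, *Krt9* of palm and sole, and *Krt77* of sweat ducts, stayed at 1.44 FPKM or less in both libraries.

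*Krt75*, the type II keratin of the companion layer of the hair follicle and also of filiform papillae, had the highest ratio of all members at 5 FPKM. It had 139.7 FPKM in GFP-high versus 12.1 in GFP-low cells, a ratio of 11.6. *Krt25*, *Krt26*, *Krt27*, *Krt28*, *Krt71*, *Krt72* and *Krt73*, the keratins of the inner root sheath of the hair follicle, lay between 0.01 and 1.12 FPKM, so *Krt75* stood alone in this group. *Krt12*, the type I keratin of the cornea, had 1.07 and 0.20, and 42.0% of its windows lie opposite an antisense transcript (*A830036E02Rik*), with 0 on its own strand.

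Of the remaining members, *Krt24* had the largest ratio toward GFP-low cells. This type I keratin of differentiating keratinocytes had 89.6 FPKM in GFP-high versus 657 in GFP-low cells, a ratio of 7.33. *Krt23*, a type I keratin of glandular and gut epithelium, had 443 and 183 and was called for GFP-high at 2.42. *Krt80*, a type II keratin found near desmosomes, had 389 and 437, and *Krt78*, a type II keratin of suprabasal stratified epithelium, had 18.2 and 26.5. Neither was called; at 1.46, *Krt78* was the member nearest the limit from below, and at 1.81 *Krt17* was the nearest above it. *Krt79*, of the hair canal and sebaceous duct, had 2.53 and 2.11.

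Other called members are shown by the same windows, first *Krt75* (chromosome 15, minus strand, chr15:101573905-101574154) and *Krt23* (chromosome 11, minus strand, chr11:99493121-99493370), higher in GFP-high cells, then *Krt24* (chromosome 11, minus strand, chr11:99285263-99285512) and *Krt76* (chromosome 15, minus strand, chr15:101892921-101893170), higher in GFP-low cells.

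Krt75: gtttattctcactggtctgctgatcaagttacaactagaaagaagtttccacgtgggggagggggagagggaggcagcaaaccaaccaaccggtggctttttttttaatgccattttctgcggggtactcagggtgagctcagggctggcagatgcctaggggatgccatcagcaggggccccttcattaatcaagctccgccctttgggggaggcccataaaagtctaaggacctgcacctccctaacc
Krt23: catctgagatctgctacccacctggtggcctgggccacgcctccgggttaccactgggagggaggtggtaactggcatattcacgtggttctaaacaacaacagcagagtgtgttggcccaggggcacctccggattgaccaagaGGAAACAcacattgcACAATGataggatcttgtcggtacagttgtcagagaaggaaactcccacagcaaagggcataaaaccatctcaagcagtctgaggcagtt
Krt24: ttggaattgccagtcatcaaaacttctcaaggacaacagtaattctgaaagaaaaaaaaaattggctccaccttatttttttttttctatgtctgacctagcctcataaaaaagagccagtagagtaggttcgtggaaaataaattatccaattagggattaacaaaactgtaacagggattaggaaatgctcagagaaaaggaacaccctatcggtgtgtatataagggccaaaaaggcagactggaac
Krt76: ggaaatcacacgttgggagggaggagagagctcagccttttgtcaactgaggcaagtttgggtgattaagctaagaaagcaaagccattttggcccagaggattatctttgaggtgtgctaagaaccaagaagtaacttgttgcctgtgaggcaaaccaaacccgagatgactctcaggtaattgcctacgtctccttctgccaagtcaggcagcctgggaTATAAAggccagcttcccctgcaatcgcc

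*Krt23* carries a forkhead and a SOX match, both on the strand opposite to the gene, and *Krt76* a TATA box. No letters of the 5 motifs were found in the windows of *Krt75* and *Krt24*.

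**Figure D2:**
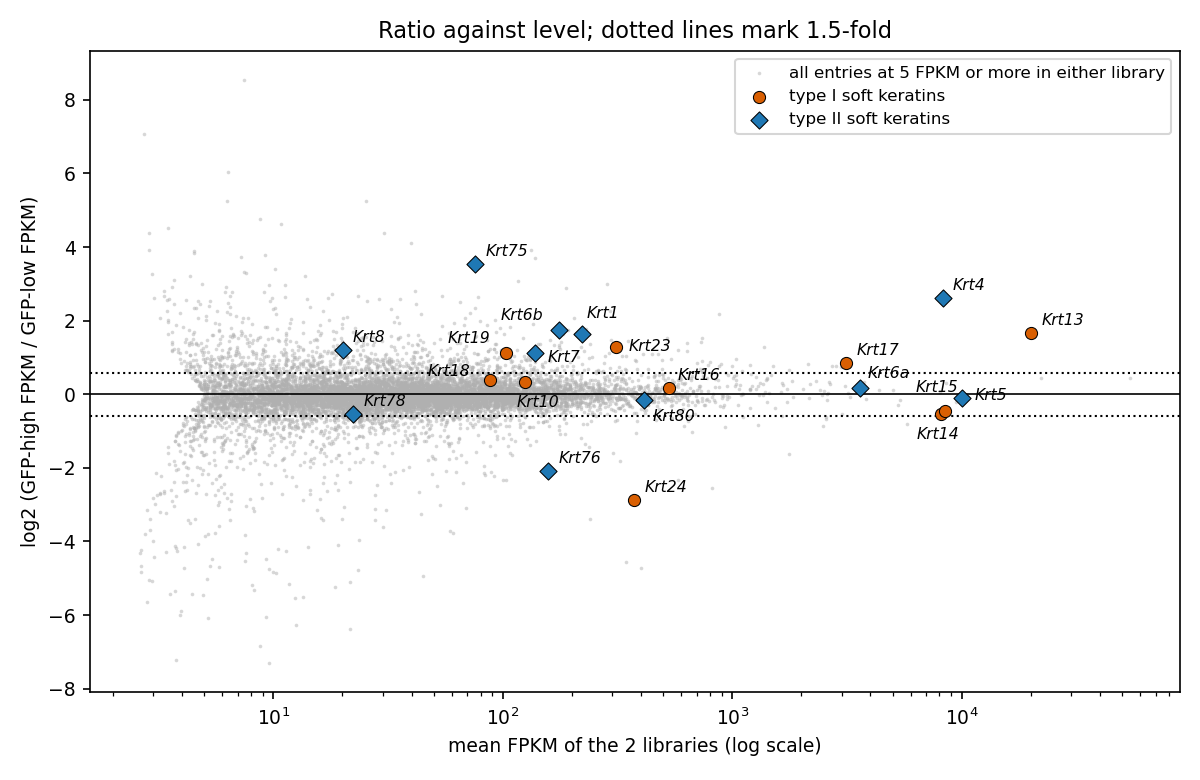
Log2 ratio of GFP-high to GFP-low FPKM against the mean FPKM of the libraries (log axis) for 10758 entries at 5 FPKM or more in either library and above 0 in both (grey), with type I (circles) and type II (diamonds) soft keratins named. *Krt4* and *Krt13* sit high at the abundant end, *Krt5*, *Krt14* and *Krt15* just under 0, and *Krt24* and *Krt76* far below; the dotted lines mark 1.5-fold, and pan-epithelial scaling would lower every point by 0.47.

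Both types were higher in total in GFP-high cells, under each scaling. Type I members summed to 49807 FPKM in GFP-high versus 32977 in GFP-low cells, and type II members to 29107 and 17154. Type I transcripts thus exceeded type II transcripts in both libraries, by 1.71 times in GFP-high and 1.92 times in GFP-low cells, although the protein chains pair in equal number. Type I had 4 members over 1000 FPKM in each library and type II had 3.

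Each total rested on a few genes, and the leading gene differed between the populations. *Krt13* made up 61.3% of the type I total in GFP-high cells against 29.5% in GFP-low cells, where *Krt15* led with 29.6%. *Krt4* made up 48.8% of the type II total in GFP-high cells against 13.5% in GFP-low cells, where *Krt5* led with 60.8%. The 3 most abundant members held 88.9% of type I in GFP-high versus 88.4% in GFP-low cells, and 95.1% and 94.0% of type II. Over both types, the first 5 in GFP-high cells were *Krt13*, *Krt4*, *Krt5*, *Krt15* and *Krt14*, and in GFP-low cells *Krt5*, *Krt15*, *Krt13*, *Krt14* and *Krt6a*.

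**Figure D3:**
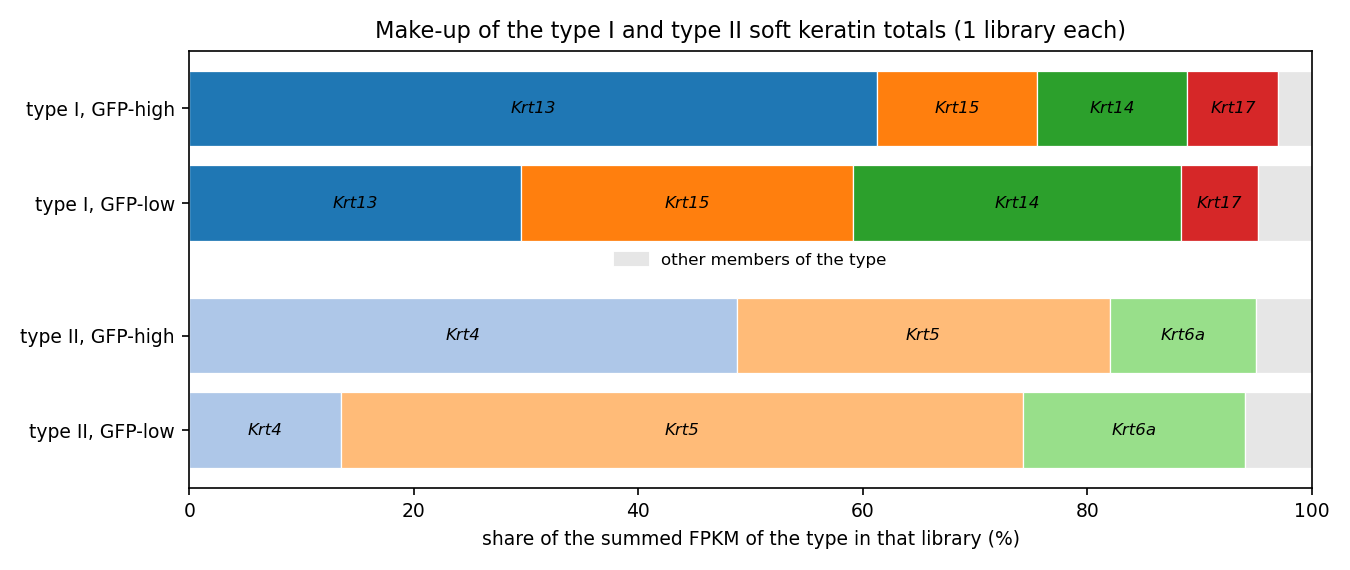
Share of the summed FPKM of each keratin type held by its most abundant members, in percent, for 1 GFP-high and 1 GFP-low library. *Krt13* and *Krt4* take up more of their type in GFP-high cells (61.3% and 48.8%) than in GFP-low cells (29.5% and 13.5%), and *Krt15*, *Krt14* and *Krt5* less.

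The types were also compared by the ratio of their members between populations. Over the 11 type I members averaging 1 FPKM or more the median log2 ratio was 0.39, which becomes -0.07 after pan-epithelial scaling. Over the 13 such type II members it was 0.50, and 0.03 after that scaling. At an average of 5 FPKM or more the medians lay further apart, at 0.36 for the 10 type I and 1.11 for the 11 type II members. The order of the types was not stable. Without the members sharing 20% or more of windows the medians were 0.62 for type I and 0.38 for type II. With a pseudocount of 1 they were 0.39 and 0.27. Leaving out the inner root sheath and companion layer keratins gave 0.39 and 0.38, and taking all members above 0 in both libraries gave 0.17 and 0.26. All 12599 entries averaging 1 FPKM or more had a median of -0.05, and of -0.51 after the scaling. Of type I, 4 of 10 members at 5 FPKM were called for GFP-high (*Krt13*, *Krt17*, *Krt19* and *Krt23*) and 1 for GFP-low (*Krt24*). Of type II, 6 of 11 were called for GFP-high (*Krt1*, *Krt4*, *Krt6b*, *Krt7*, *Krt8* and *Krt75*) and 1 for GFP-low (*Krt76*). The GFP-high shares were 40% and 54.5% against 9.48% of all entries, and the GFP-low shares, 10% and 9.09%, were near the 8.9% of all entries. Whether the types differ was not tested.

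For known partners the ratio of type II to type I was taken within each library, which no scaling changes. *Krt4* to *Krt13* was 0.465 in GFP-high versus 0.239 in GFP-low cells, so the type II partner was the scarcer transcript in both and nearer to its partner in GFP-high cells. *Krt5* to *Krt14* was nearer to level, at 1.45 and 1.08, and *Krt5* to *Krt15* at 1.36 and 1.07. *Krt7* to *Krt19* (1.33 and 1.34) and *Krt6a* to *Krt16* (6.76 and 6.77) were nearly the same in the 2 libraries. *Krt8* to *Krt19* was 0.198 and 0.187, also nearly the same. *Krt8* to *Krt18* was 0.28 and 0.161. The pairs with *Krt6a*, *Krt8* or *Krt16* rest on levels that shared windows make uncertain.

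The largest changes were among partners of *Krt10* and *Krt17*. *Krt1* to *Krt10* was 2.4 in GFP-high versus 0.979 in GFP-low cells, while *Krt76* to *Krt10* was 0.43 and 2.31, so the more abundant partner of *Krt10* was *Krt1* in the first and *Krt76* in the second. *Krt2* to *Krt10* was 0.0103 and 0.00921. *Krt75* to *Krt17* was 0.0346 and 0.00539, and *Krt6b* to *Krt17* was 0.0668 and 0.0361. Across the 12 pairs with every value at 1 FPKM or more, the type II to type I ratio was higher in GFP-high cells in 9. Pairs that share a gene are not independent of each other, and shared windows make those with *Krt6a*, *Krt6b*, *Krt8* or *Krt16* uncertain.

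**Figure D4:**
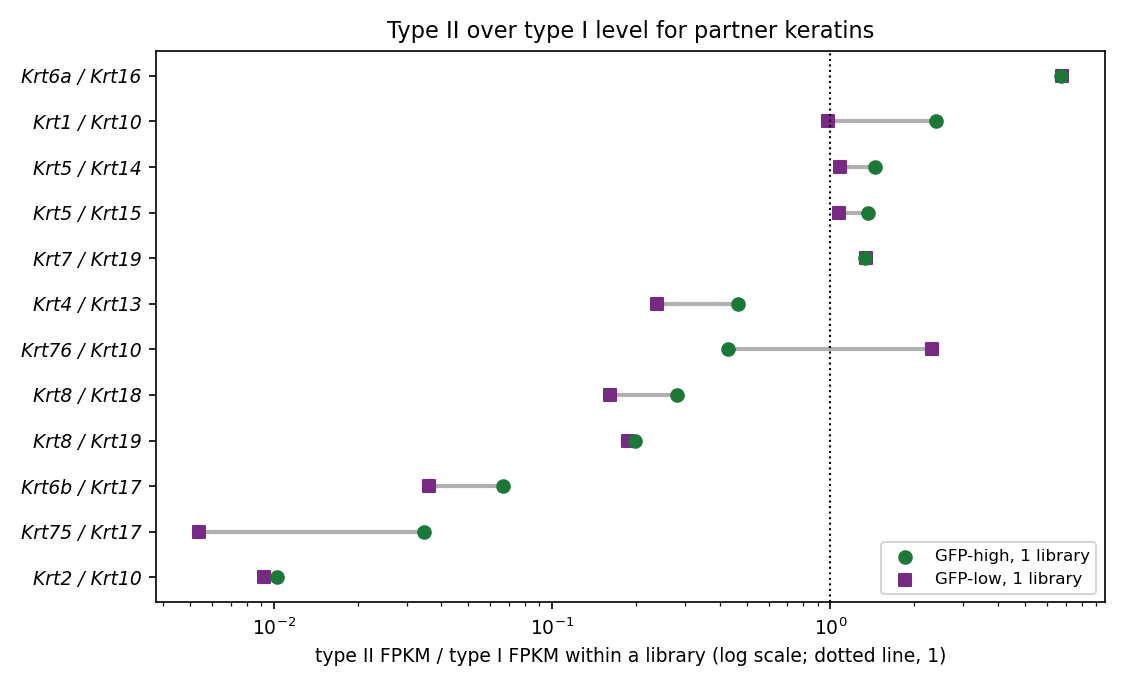
FPKM of the type II keratin over that of its type I partner within each library, on a log axis, for 12 pairs, with GFP-high as circles and GFP-low as squares. The marks of *Krt6a*/*Krt16* and *Krt7*/*Krt19* overlie each other. Those of *Krt76*/*Krt10* (0.43 and 2.31) and *Krt1*/*Krt10* (2.4 and 0.979) lie on opposite sides of 1 in the 2 libraries. Shared windows make the pairs with *Krt6a*, *Krt6b*, *Krt8* or *Krt16* uncertain.

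The genes lie in 2 clusters, on the mm10 build by GENCODE M21. Chromosome 11 holds 16 members, all of type I and all on the minus strand, within 981 kb (chr11:99279959-100261029). Chromosome 15 holds 18, the 17 type II members and the type I gene *Krt18*, within 685 kb (chr15:101347444-102032027), with 16 on the minus strand. Some neighbours differed in direction. *Krt13* (chr11:100117327-100121566) is followed by *Krt15*, and *Krt4* (chr15:101918535-101924735) is next to *Krt76* (chr15:101884351-101892920), and in both cases the signs were opposite. *Krt75*, *Krt6b*, *Krt6a* and *Krt5* lie side by side, and their log2 ratios went down in that order, from 3.53 through 1.74 and 0.17 to -0.11.

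**Figure D5:**
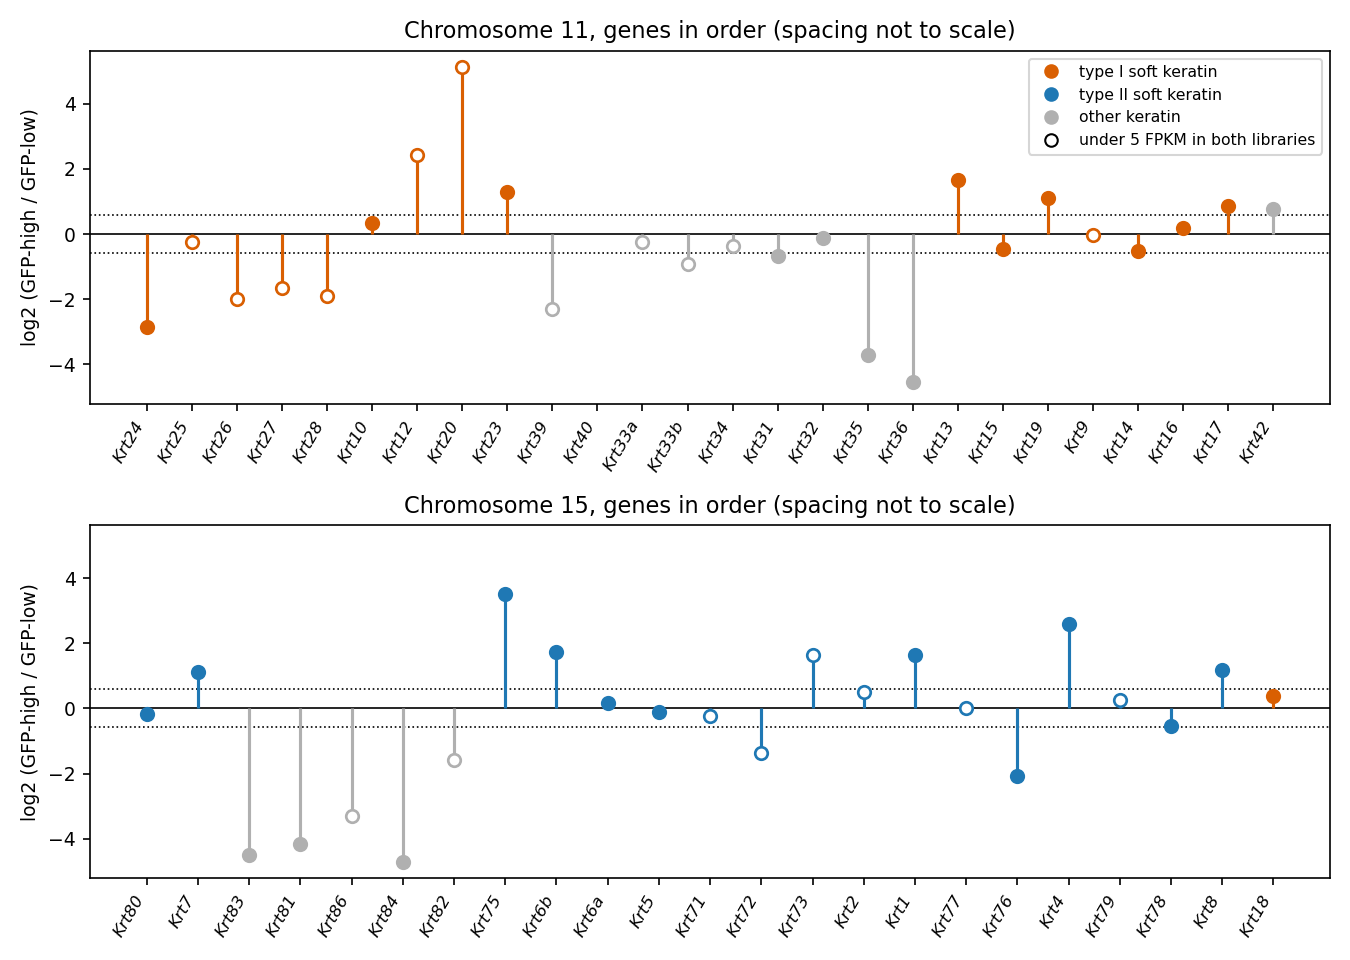
Log2 ratio of GFP-high to GFP-low FPKM for keratin genes in their order along chromosome 11 (top) and chromosome 15 (bottom), type I orange, type II blue and other keratins grey, with hollow marks under 5 FPKM in both libraries and dotted lines at 1.5-fold. *Krt4* (2.61) and *Krt76* (-2.09) are neighbours of opposite sign; *Krt40*, listed at 0 in GFP-high cells, has no mark.

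Proteins that anchor keratin filaments were mostly uncalled. Of 11 network partners 10 reached 5 FPKM, 2 were called for GFP-high and 2 for GFP-low (20% each, against 9.48% and 8.9% of all entries), and their median log2 ratio was 0.33. After pan-epithelial scaling 1 and 4 were called (background 3.29% and 39.8%). Whether these shares differ from the background was not tested. *Dsp*, the desmosomal plaque protein desmoplakin that binds keratin, was the most abundant, with 2046 FPKM in GFP-high versus 1606 in GFP-low cells. *Ppl* and *Evpl*, the plakins periplakin and envoplakin of the cornified envelope, had 241 and 95.5, and 283 and 141, and were the 2 called for GFP-high. *Tchh*, trichohyalin, a keratin-binding matrix protein of the inner root sheath and filiform papillae, had 30.0 and 108. It was called for GFP-low with *Tchp*, the keratin-binding protein trichoplein, which had 20.01 and 32.4.

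Among 13 regulators known to act on keratin genes, 12 reached 5 FPKM, 3 were called for GFP-high and 0 for GFP-low (25% and 0%, against 9.48% and 8.9% of all entries), with a median log2 ratio of -0.10. This split depended on the scaling, with 4 to 0 after scaling to the median ratio (background 10.3% and 8.05%), 2 to 0 after TPM scaling (background 7.5% and 11.3%) and 0 to 6 after pan-epithelial scaling (background 3.29% and 39.8%). The 3 were *Grhl3* (168 and 88.6), a grainyhead factor of barrier formation, *Klf5* (310.1 and 199.5), a Krüppel-like factor of proliferating epithelium, and *Ovol1* (98.7 and 54.8), a zinc finger factor of keratinocyte differentiation. *Klf4*, a barrier factor, was the most abundant with 599.9 and 685 and was not called. Of 14 other intermediate filament genes 4 reached 5 FPKM, with a median log2 ratio of 0.12. *Lmna*, the nuclear lamin, led them with 938 and 818, and *Vim*, the filament of mesenchymal cells, was called for GFP-low with 96.0 and 645.

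Markers of other cell types differed between the libraries. Of 10 fibroblast markers 6 reached 5 FPKM, 5 were called for GFP-low (83.3% of the 6, against 8.9% of all entries) and 0 for GFP-high, their summed FPKM was 438 in GFP-high versus 1856 in GFP-low cells, and *Col3a1* was the most abundant with 193 and 966. Of 7 Schwann lineage markers 6 reached 5 FPKM and 5 were called for GFP-low, the sum was 89.7 and 311, and *Erbb3* was the most abundant with 60.3 and 66.9. *Sox10*, which defines that lineage, had 0.51 in GFP-high versus 42.7 in GFP-low cells. With the minimum in both libraries, 4 of 5 fibroblast and 1 of 2 Schwann lineage markers were called for GFP-low. The share of all entries at that level was 6.32%. None of the markers of either list was at 0 in both libraries. The part of these cells in the lower keratin total of GFP-low cells was not tested.

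The lists for the remaining cell types outside the epithelium were low in both libraries. Only 1 melanocyte, 2 skeletal muscle, 2 endothelial and 1 leukocyte marker reached 5 FPKM in either library. Over all entries at that level 9.48% were called for GFP-high and 8.9% for GFP-low. Of 6 melanocyte markers *Mitf* was the most abundant and was called for GFP-high (17.2 and 1.24, a call that the minimum in both libraries would end), the sum was 18.5 and 3.91, of which the other 5 made up 1.36 and 2.67, and *Tyr*, the defining enzyme of pigment synthesis, was listed at 0 in both. Of 8 skeletal muscle markers *Tnnt3* was called for GFP-high (8.58 and 5.05), and the sum was 21.6 and 20.8; *Acta1* (7.25 and 8.57) was the most abundant over both libraries together. Of 8 endothelial markers *Pecam1* was called for GFP-high (5.31 and 2.38, a call that also needs the minimum in only 1 library), and the sum was 38.1 and 27.9, led by *Egfl7*. Of 7 leukocyte markers the 1 at 5 FPKM, *Cd68*, was not called, and the sum was 16.3 and 18.0, nearly all of it from that gene. The 10 pan-epithelial genes summed to 2906 in GFP-high versus 2154 in GFP-low cells, with 4 called for GFP-high (*Epcam*, *Prss8*, *Rab25* and *Spint1*; 40%, against 9.48% of all entries), 0 for GFP-low (against 8.9%) and *Rab25* the most abundant. After TPM and after pan-epithelial scaling the call of *Pecam1* ends and *Fbn1* is called for GFP-low. After pan-epithelial scaling alone the calls of *Tnnt3*, *Epcam*, *Prss8* and *Rab25* end, and *Acta1*, *Cd68*, *Erbb3* and *Grhl2* are called for GFP-low.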

How the data were processed

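RNA of 2 sorted populations, 1 library each, was sequenced. By the submitters' processing notes, reads were trimmed with Trimmomatic 0.36, mapped to mm10 with GSNAP and quantified with Cufflinks 2.2.1, and the authors deposited FPKM. The columns are named means, but the labels give 1 library each, so a value was read as that of 1 library. The authors' own fold column was not used. Columns of other samples: 0.

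Dropping the 21 entries that are not protein-coding in GENCODE M21 left 21607, and 17 entries without a number in either column entered no ratio. A member was called at 5 FPKM in the enriched library and a ratio of 1.5. Ratios used no pseudocount. Members at 5 FPKM in either library are named with both values; of other lists, called members and the most abundant gene are named, and any other gene was chosen after its values were seen. Members and lists were chosen with earlier results of these data known. Shared 50-nt windows were counted on both strands against all annotated transcripts of GENCODE M21. Depth was estimated by fitting low values of single-transcript genes to whole reads, with 200 nt taken off each exon length. The 3-read level used the same correction. The depth taken was that at which the largest share of values came within 0.15 of a whole read. That share was 63.8% of 199 values in GFP-high and of 149 in GFP-low cells, and its median over the 128 and 130 depths tried was 27.9% and 28.5%. As the depth was chosen by this share, the share is no test of it, and the depth is approximate. The 3-read level covers counting error only. Alternatives were other minimums, ratios, pseudocounts, scalings and sets of members. The scripts (Python 3.11.15, pandas 2.3.3, numpy 2.4.6, matplotlib 3.10.9) were tested on simulated data.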

Additional observations from a re-analysis of the deposited data

How the results depend on the processing

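With no replicates, a value or count was taken as unchanged when it moved by less than 1.5-fold. On that measure 48 of 54 recomputed totals, medians and counts held. Pan-epithelial scaling turned the sign of 4 uncalled members (*Krt6a*, *Krt10*, *Krt16* and *Krt18*), and no other scaling or pseudocount turned that of a member at 5 FPKM. The 2 members called for GFP-low (background 8.9%) became 6 with no FPKM minimum (background 18.8%), where the 4 added are under 1 FPKM in both libraries. The GFP-low count was 4 after TPM scaling (background 11.3%) and 6 after pan-epithelial scaling (background 39.8%). The added members were *Krt14* and *Krt78* under TPM, and also *Krt15* and *Krt80* under pan-epithelial scaling, where *Krt17* lost its GFP-high call. Pan-epithelial scaling turned the type I median log2 ratio from 0.39 to -0.07. The type II median rose from 0.50 to 1.11 over members at a mean of 5 FPKM or more, because that leaves out *Krt2* and *Krt79*. Without *Krt4* and *Krt13*, soft keratins made up 3.19% of the GFP-high library in place of 7.37%. No paired analysis was possible because each population has 1 library. The lowest members rest on a few reads, so calls under 1 FPKM are uncertain, and paralogs with shared windows limit *Krt6a*, *Krt6b*, *Krt8* and *Krt16*.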

Other observations

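Other genes with keratin names were chosen after their values were seen. *Krtdap*, which encodes a secreted protein of differentiating keratinocytes and no filament, was at the level of the leading keratins, with 25624 FPKM in GFP-high versus 18788 in GFP-low cells, a ratio of 1.36. *Krtcap2*, a subunit of the enzyme that adds sugars to new proteins, had 112 and 113, and *Krtcap3* had 89.4 and 117. *Krt42*, a type I keratin of nail numbered outside the rule, lies beside *Krt17* and had 5.26 and 3.07, which is a GFP-high call at 1.71 that ends with the minimum in both libraries or after TPM or pan-epithelial scaling. *Krt222*, a keratin-like gene without the full rod domain, had 0.22 and 0.95.

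Hair keratins, the nearest relatives of the soft keratins, lay in the other direction. Of 14 in the same clusters 7 reached 5 FPKM in either library, 0 were called for GFP-high and 6 for GFP-low (85.7%, against 8.9% of all entries). *Krt31*, *Krt81* and *Krt83* reached it in GFP-low cells only, which favours that direction, and 28.1%, 37.7% and 36.9% of their 50-nt windows occur in other transcripts, so these 3 are uncertain. Of the 4 that reached it in both libraries 3 were called for GFP-low (*Krt35*, *Krt36* and *Krt84*; background 6.32%), with a median log2 ratio of -4.13 against 0.39 for the 21 soft members, all at that level in both. The summed FPKM of all 14 was 93.0 in GFP-high versus 1593 in GFP-low cells. The difference between the families was not tested.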
